A study of Mus musculus with 2 samples.

Results

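Tail scale keratinocytes were taken here as cells with a high share of the hair-type keratins Krt36 and Krt84 in 2 single-cell RNA libraries of mouse skin epidermis. They were chosen by their own reads: at least 1% of unique molecular identifiers (UMIs, 1 per captured RNA molecule) from Krt36 and Krt84 together, at least 1 UMI of Krt84, and under 2% from the interfollicular keratins Krt10, Krt1 and Krt2 together. Barcodes also needed at least 1500 detected genes and at most 10% mitochondrial UMIs. The rule found 1188 scale cells among 17915 passing barcodes (36282 barcodes in all), 931 in the control library and 257 in the SurvivinGOF library. The levels of the 5 keratins in the rule, and every contrast drawn along them, are therefore descriptions and not findings.

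The control library has the genotype Involucrin-CREER/Rosa-SmoM2 and the other library Involucrin-CREER/Rosa-SmoM2/Krt14rtTA/Survivin GOF, called GOF below, so both carry the active Smoothened allele SmoM2 under a Cre driven by the involucrin promoter. The added alleles are a tetracycline-dependent activator under the Krt14 promoter and a gain-of-function allele of Survivin, the protein of Birc5. Both libraries came from cells sorted for high α6 integrin, no CD34 and YFP, and the series text adds Survivin-mCherry as a criterion for the GOF cells. Age, body site, sex, number of mice and drug schedule are not given in the sources used here. Each genotype is 1 library, so no test between genotypes can be made, and every 95% interval below is exact and covers counting error only.

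Mouse tail epidermis is laid out in repeating units of scales and interscales. Interscale cells make a granular layer and the keratins Krt10, Krt1 and Krt2, while scale cells keep their nuclei as they cornify and make hair-type keratins of the kind found in hair shafts, nails and tongue papillae. Hoxc13 and Foxn1 encode transcription factors known as regulators of hair keratin genes.

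The 200 bases before the RefSeq start of 3 keratin genes are shown, because Krt36 and Krt84 define the cells and Krt24, given as a further marker, had more RNA in cells with more of both. All are on the minus strand of GRCm38.p6, at chr11:100105627-100105826 for Krt36, chr15:101532821-101533020 for Krt84 and chr11:99285263-99285462 for Krt24, and capitals mark the match to a TATA-like pattern, ATA and AAG with any base between them, written down after the sequences had been seen.
Krt36: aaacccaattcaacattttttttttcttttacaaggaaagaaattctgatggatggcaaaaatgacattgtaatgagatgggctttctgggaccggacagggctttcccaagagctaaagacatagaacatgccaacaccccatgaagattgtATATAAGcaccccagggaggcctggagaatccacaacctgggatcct
Krt84: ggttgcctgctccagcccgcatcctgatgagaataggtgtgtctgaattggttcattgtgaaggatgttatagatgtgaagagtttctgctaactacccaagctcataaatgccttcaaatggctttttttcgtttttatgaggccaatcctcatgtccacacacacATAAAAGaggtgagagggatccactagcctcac
Krt24: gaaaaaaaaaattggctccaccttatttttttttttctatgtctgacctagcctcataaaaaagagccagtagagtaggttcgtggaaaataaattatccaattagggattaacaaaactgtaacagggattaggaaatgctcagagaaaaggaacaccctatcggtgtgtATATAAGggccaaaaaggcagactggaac
The pattern began 47 bases before the start of Krt36, 33 before that of Krt84 and 29 before that of Krt24. Searched on both strands, this pattern was present in 8.86% of 32851 RefSeq windows of the same length. The letters GACGC, the letters CTTTGA, and TGA and TCA with any base between them, searched on both strands, were not in these 3 windows and were in 19.85%, 10.9% and 5.48% of all windows. A match of letters is a description and shows no binding.

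Krt36 (ENSMUSG00000020916) is a type I hair keratin gene on chromosome 11, 100102007 to 100105626 in mm10, and Krt84 (ENSMUSG00000044294) is a type II hair keratin gene on chromosome 15, 101525026 to 101532820. Summed over the scale cells, Krt36 was at 23918 and 27264 CPM (UMIs of the gene per 1000000 UMIs of those cells) in the control and GOF libraries, and Krt84 at 9766 and 12752 CPM. Single control cells held Krt36 at 4069.8 to 143127 CPM with a median of 17864, and single GOF cells at 4356 to 115434 CPM with a median of 26242. The 2 ranges overlap almost wholly. Within cells, Krt36 and Krt84 went together, with a Spearman correlation of their shares of 0.77 over 931 control and 0.84 over 257 GOF cells. These are cells of 1 library each that share depth and the selection on the sum of both genes.

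The lower edge of the group differed between the libraries. In the control, 74 cells lay within 0.1 percentage points above the 1% minimum and 108 within 0.1 points below it, with 0.9995% as the highest share outside. In the GOF library, 7 cells lay just inside and 6 just outside, at 1.02% and 0.975% for the nearest. Among cells under the Krt10, Krt1 and Krt2 limit, 17.9% of control cells (17.2 to 18.7) and 1.99% of GOF cells (1.66 to 2.37) had a Krt36+Krt84 share of 0.3 to 1%. The control scale cells thus continued a dense run of cells with lower shares, and the GOF scale cells had few such neighbours. Of the cells at 0.3 to 1%, 86.2% in the control (84.6 to 87.8) and 26.0% in the GOF library (18.6 to 34.5) held at least 0.3% of Krt10, Krt1 and Krt2. Whether that run was made of scale cells was not tested. At the other limit, the highest shares of Krt10, Krt1 and Krt2 inside were 1.999% and 1.996% and the lowest outside were 2.01% and 2.08%.

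Scale cells made up 8.47% of passing control barcodes (7.955 to 9.005) and 3.71% of passing GOF barcodes (3.28 to 4.185). At a minimum of 4% the shares were 2.82% and 1.81%, from 310 and 125 cells. The sort gate, which differed between the libraries by the mCherry criterion, and the depth go along with these shares, and their part was not tested.

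**Figure D1:**
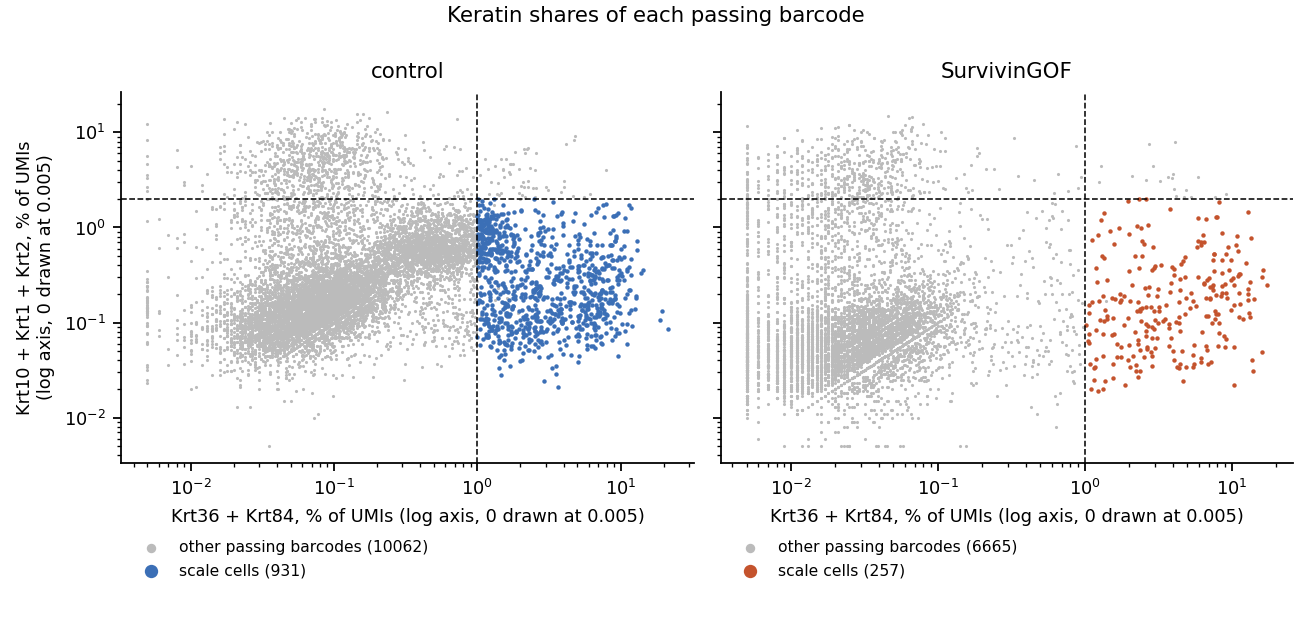
Each point is 1 passing barcode, with the percent of its UMIs from Krt36 and Krt84 on the x axis and from Krt10, Krt1 and Krt2 on the y axis (both log axes, dashed lines at the 1% and 2% limits). The 931 control scale cells continue a dense band of grey cells below 1%, whereas few grey cells lie next to the 257 SurvivinGOF scale cells.

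Barcodes of other kinds also held some scale keratin RNA. Cells rich in Krt10, Krt1 or Krt2 with under 0.1% scale keratin, called interscale-keratin cells (534 control and 499 GOF), had a median Krt36+Krt84 share of 0.0554% and 0.0259%. Cells rich in Krt5 and Krt14, called basal-keratin cells (3189 and 3945), had 0.0573% and 0.0262%, and melanocyte-like cells, named from the melanocyte markers (135 and 139), had 0.0895% and 0.0347%. The upper limit of 0.1% was part of the definition of the first 2 classes. Summed melanocytes held Krt36 at 2643 and 827 CPM, of which a few cells carried much, with a 95th percentile of the Krt36+Krt84 share of 1.09% and 0.256%. The melanocyte class had no keratin limit, so keratinocytes with pigment RNA and doublets were not kept out of it. It held the basal keratin Krt14 at 17612 and 19969 CPM, while scale cells had 9336 and 10833 CPM. Single scale cells held Krt14 at 266 to 33255 CPM in the control and 133 to 39142 CPM in the GOF set. The part of RNA shared between droplets in the levels below was not tested.

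Depth, sex and doublet scores differed between the 2 sets of scale cells. The median was 8218 UMIs and 2496 genes per control scale cell and 14595 UMIs and 3429 genes per GOF scale cell, from 9526273 and 4517520 UMIs in all. Called from Xist and Y-linked UMIs, 700 control scale cells were male and 2 female, against 21 male and 196 female in the GOF library. Female-called cells made up 90.3% (85.6 to 93.9) of called GOF scale cells, 68.1% (63.4 to 72.5) of GOF interscale-keratin cells and 67.0% (65.3 to 68.6) of GOF basal-keratin cells. In scale cells sex and genotype cannot be told apart, so values in male-called cells, from 7927221 control and 343147 GOF UMIs, are given beside some of the results, and no statement below covers them where they are not given. The 2 libraries shared 84 barcodes, 3 of which were a scale cell in either library and 0 in both. A doublet caller marked 0 barcodes and so did not work. Barcodes at the top 6% of its scores included 90 control scale cells (9.67% of them) and 15 GOF scale cells (5.84%).

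The markers given for scale cells were compared across the classes. Krtap7-1, which encodes a keratin-associated protein of the hair shaft type, was at 71.0 and 82.8 CPM in control and GOF scale cells, against 5.34 and 0.831 CPM in interscale-keratin cells. Serpinb13, a clade B protease inhibitor gene, was at 27.6 and 43.4 CPM, against 5.89 and 7.76 CPM. Krt24, a type I keratin gene of differentiated cells, did not separate the classes in the control, with 452 CPM in scale and 544 CPM in interscale-keratin cells. In the GOF library Krt24 was at 445 and 282 CPM. Thus 2 of the 3 markers outside the rule were higher in scale cells of both libraries. The markers were given with earlier results of these data known, so this is a description and no separate evidence for the name. Krt31, a hair keratin in use as a marker of tail scales, had 7 and 0 UMIs, and the labels give skin epidermis with no body site, so the data do not show that the cells came from tail.

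Other hair keratins were nearly absent. Of the 15 hair-type keratins in the files, 3 reached 50 pooled UMIs, Krt36, Krt84 and Krt32, the last at 19.6 and 33.0 CPM. Krt34, Krt40 and Krt82 had no UMI, and Krt35, Krt83 and Krt33a were at 0.735 and 1.55, 0.525 and 0.443 and 0.420 and 0.443 CPM in the control and GOF libraries. Of 57 keratin-associated protein genes, 40 had no UMI in any scale cell. Krtap7-1 had a UMI in 16.7% of control (14.4 to 19.3) and 19.1% of GOF scale cells (14.45 to 24.4) after thinning each cell to 3000 UMIs, which left out 3 control scale cells. In control melanocytes the thinned share was 0.741%, and before thinning the scale cell shares were 34.05% and 44.0%.

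Read against interscale-keratin cells of the same library, which is the contrast the rule itself draws, 108 genes were at least 2-fold higher in scale cells of both libraries and 106 at least 2-fold lower. These are 1.14% and 1.11% of the 9511 genes compared, without the 5 keratins of the rule. Among the genes furthest on the scale side after Krtap7-1 was Selenbp1, a selenium-binding methanethiol oxidase gene, at 1118 and 1869 CPM in scale cells against 44.3 and 96.8 CPM. Sprr2b, a small proline-rich cornified envelope protein gene, was at 58.5 and 52.7 CPM against 9.75 and 3.88 CPM. Fam129a, a stress-related gene, was at 48.9 and 77.5 CPM against 4.05 and 3.46 CPM, but GOF melanocytes held it at 74.7 CPM.

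Hoxc13 had the largest scale excess in the list of scale and hair transcription factors, at 214 CPM (204.5 to 223) in control and 318.5 CPM (302 to 335) in GOF scale cells against 37.0 and 45.03 CPM. After thinning to 3000 UMIs, 46.8% of control and 60.3% of GOF scale cells held a Hoxc13 UMI, 8.05% and 11.4% of interscale-keratin cells, and 15.6% and 21.6% of melanocytes. Before thinning, 75.3% and 93.0% of scale cells did. Foxn1 was at 41.9 and 60.2 CPM against 27.8 and 25.1 CPM. Of 21 compared genes of the list, 4 were at least 2-fold higher in scale cells of both libraries, Hoxc13 and the homeobox genes Msx2, Dlx2 and Dlx3. Another 2 were at least 2-fold lower, the homeobox gene Barx2 and the zinc finger gene Egr2. Msx2 was at 32.3 and 40.5 CPM against 9.75 and 8.04 CPM, and Barx2 at 23.1 and 7.97 CPM against 81.7 and 108 CPM.

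Further genes on the scale side encode chaperones, a gap junction protein and enzymes. The small heat shock protein gene Hspb1 was at 1708 and 1797 CPM against 452 and 485 CPM, and its relative Hspb8 at 74.95 and 79.7 CPM against 24.7 and 27.4 CPM. Gjb2, which encodes connexin 26, was at 80.4 and 97.2 CPM against 24.5 and 16.1 CPM. Cbs, an enzyme gene of transsulfuration from methionine to cysteine, was at 109 and 137.5 CPM against 40.3 and 41.4 CPM. Also on this side were Kazald1, at 72.1 and 93.2 CPM, and Nudt4, an inositol pyrophosphate phosphatase gene, at 77.5 and 127.5 CPM. Melanocytes held Cbs at 92.1 and 107 CPM and Nudt4 at 58.75 and 122 CPM, near the scale cell levels. Id1, Id2 and Id3, targets of BMP signalling, were the 3 of 9 compared genes of the BMP list past 2-fold in both libraries, with Id1 at 266 and 399 CPM against 119 and 163 CPM.

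Krt15, a keratin gene of basal cells, and Gpha2, a glycoprotein hormone alpha subunit gene, also stood on the scale side of this contrast. Both were higher still in basal-keratin cells, with Krt15 at 2215 and 1939.8 CPM in scale and 2780 and 2481 CPM in basal-keratin cells, and Gpha2 at 159 and 222 CPM in scale and 209 and 293 CPM in basal-keratin cells. Hhip, described below, was named here through its level in the GOF library.

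Genes on the interscale side were protease inhibitors, kallikreins and cystatins, among others. Serpinb12, a clade B serpin gene, was at 16.6 and 4.21 CPM in scale cells against 326 and 280.3 CPM in interscale-keratin cells. Cstdc5 and Stfa3, of the stefin group of cysteine protease inhibitors, had 269.5 and 147 CPM against 1485 and 1199 CPM and 77.7 and 77.0 CPM against 419 and 581 CPM, and both belong to families of near-identical copies among which reads can be split. Klk8 and Klk5, skin kallikrein proteases, had 66.45 and 28.8 CPM against 229 and 251 CPM and 17.95 and 12.8 CPM against 50.8 and 69.7 CPM. In the serpin and cystatin list 7 of 19 compared genes were at least 2-fold lower in scale cells of both libraries and 1, Serpinb13, was higher. Wfdc17, a whey acidic protein family gene, was at 71.5 and 202 CPM against 467.5 and 1369.6 CPM. In GOF scale cells 33.3% of the Wfdc17 UMIs and 23.0% of the Stfa3 UMIs were in 1 cell. Ptgs1, which encodes cyclooxygenase 1, was at 24.9 and 31.2 CPM against 126 and 148.5 CPM. Krt7, Dpysl3, Cstdc6, Irx3, Mgst2, S100a8 and the T cell receptor gene Trbc2 completed the named genes on this side, with Krt7 at 4.41 and 1.99 CPM in scale cells against 22.8 and 59.85 CPM.

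**Figure D2:**
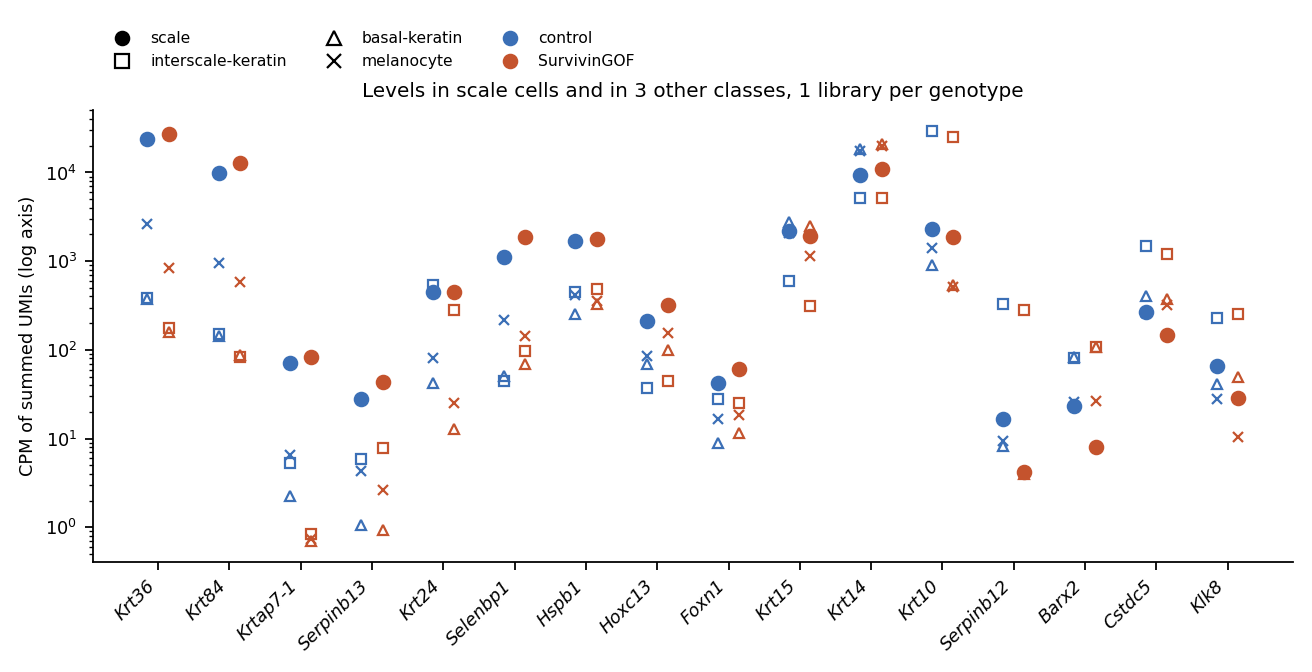
Points give CPM of summed UMIs (log axis) in scale, interscale-keratin, basal-keratin and melanocyte cells, with 1 point per class and library and no error between mice. Krtap7-1, Serpinb13, Selenbp1, Hspb1 and Hoxc13 are highest in scale cells of both libraries, while Serpinb12, Cstdc5 and Klk8 are highest in interscale-keratin cells.

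Scale cells were not uniform, and genes of differentiation were ordered along their keratin share. Cells were divided at 2%, 4% and 8% of Krt36+Krt84, which gave 391, 230, 215 and 95 control cells and 58, 74, 71 and 54 GOF cells from the lowest range to the highest. The basal keratin gene Krt14 had 12676, 10419, 3126 and 2001 CPM along these control ranges and 17088, 12309, 5232 and 1385 CPM along the GOF ranges. Col17a1, the collagen XVII gene of the hemidesmosome, was at 689.5, 647, 230 and 124 CPM (control) and 676, 457, 137 and 89.15 CPM (GOF). In both libraries Krt14 and Col17a1 were lower in each range than in the one before it.

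Suprabasal genes went the other way. Sbsn, the suprabasin gene, had 1487, 2223, 4163 and 5324 CPM along the control ranges and 1599, 2174, 3967 and 5524 CPM along the GOF ranges. Dsg1a, a desmosomal cadherin gene of upper layers, was at 496, 723, 1301 and 1629 CPM (control) and 582, 705, 1095 and 1769.7 CPM (GOF), while Dsg3, the cadherin gene of lower layers, was at 104, 101, 53.2 and 25.6 CPM (control) and 105, 96.3, 49.05 and 17.1 CPM (GOF). Dsc1, a desmocollin gene of upper layers, was at 27.8, 43.75, 101 and 243 CPM (control) and 42.45, 73.9, 115 and 309 CPM (GOF). The 2 libraries had much the same course for Sbsn and these cadherins.

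Krtap7-1, Krt24, Sprr2b and Krtap3-3 had their highest level in the highest range. Krtap7-1 had 29.0, 56.6, 119.9 and 239 CPM along the control ranges and 25.8, 38.75, 127.5 and 277 CPM along the GOF ranges. Krt24 was at 204, 315.5, 752 and 1609 CPM (control) and 123, 225, 539.5 and 1762 CPM (GOF), so within scale cells it followed Krt36 and Krt84 even though interscale-keratin cells held it too. Sprr2b was at 11.65, 13.2, 84.4 and 425 CPM (control) and 3.03, 18.2, 46.1 and 298 CPM (GOF), and Krtap3-3 at 7.14, 5.15, 17.2 and 239 CPM (control) and 1.52, 2.42, 4.905 and 94.8 CPM (GOF). Both Sprr2b and Krtap3-3 were low until the highest range.

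Among regulators, the steps were smaller for Hoxc13 and Foxn1 than for Grhl1 and Cdkn1a. Hoxc13 had 173, 226, 261 and 278 CPM along the control ranges and 299, 297, 344 and 385 CPM along the GOF ranges. Foxn1 was at 31.9, 45.6, 49.98 and 64.7 CPM (control) and 54.6, 52.7, 70.6 and 77.8 CPM (GOF). Grhl1, a grainyhead factor gene of the epidermal barrier, was at 60.65, 68.8, 131 and 201 CPM (control) and 81.9, 78.7, 122 and 176 CPM (GOF). Cdkn1a, which encodes the cyclin-dependent kinase inhibitor p21, was at 118.5, 181, 329 and 372 CPM (control) and 252, 273, 473 and 616.5 CPM (GOF). All 4 were higher in the highest range than in the lowest in both libraries.

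Across cells, 7154 genes seen in at least 10% of scale cells of both libraries were ranked by the Spearman correlation of their CPM with the Krt36+Krt84 share. The 10 most alike were Sbsn (0.76 and 0.76 in the control and GOF libraries), Hspb1 (0.69 and 0.66), Lypd3 (0.65 and 0.66), Dsg1a (0.67 and 0.61), Selenbp1 (0.65 and 0.61), Pof1b (0.64 and 0.60), the very long chain fatty acid elongase gene Elovl4 (0.55 and 0.65), Perp (0.62 and 0.55), Krt24 (0.54 and 0.67) and Ggct (0.52 and 0.54). The 10 most opposed began with Krt5 (-0.68 and -0.73) and Krt14 (-0.62 and -0.65). The ferritin genes Fth1 (-0.62 and -0.63) and Ftl1 (-0.60 and -0.52), Col17a1 (-0.55 and -0.66), S100a6, Tspo, Cox4i1, Ptma and Ifitm2 made up the rest. The cells of a library share its free RNA, a larger keratin share lowers every other CPM, and UMIs per cell correlated with the share at -0.07 over control cells and -0.49 over GOF cells. These values are descriptions over 931 and 257 cells and not over mice.

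**Figure D3:**
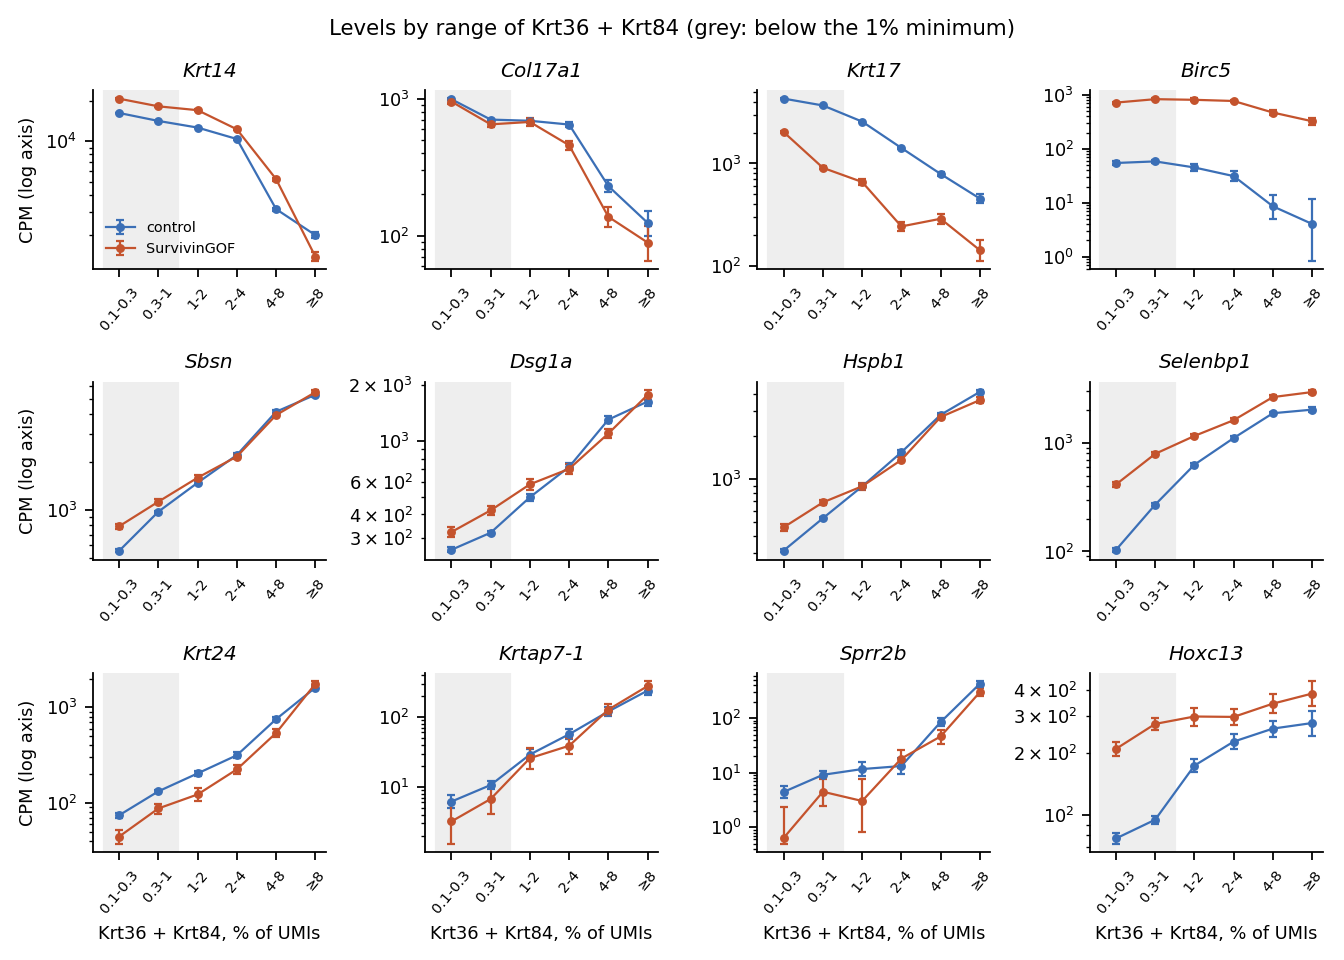
Each panel gives the CPM (log axis) of 1 gene by range of Krt36+Krt84 (x axis, percent of UMIs), with exact 95% Poisson intervals for counting error, for the control and SurvivinGOF libraries. Krt14 and Col17a1 are lower and Sbsn, Dsg1a, Hspb1, Selenbp1, Krt24 and Krtap7-1 higher in the highest range than in the lowest of the scale cells in both libraries, while Krt17 and Birc5 differ between the libraries.

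RNA of marker lists for other cell types was uneven along the same ranges and between the libraries. The 8 upper follicle markers summed to 3709.5, 2067, 1772 and 1858 CPM in the control ranges and to 1151, 776, 1202 and 1487 CPM in the GOF ranges. Over all scale cells the list summed to 2718 and 1064 CPM, of which Krt17 had 1726 and 363 CPM and Krt79 166 and 58.0 CPM. Krt17 is not particular to the upper follicle, and basal-keratin cells held it at 3949 and 1981 CPM. The 9 sebaceous markers summed to 747, 356, 353 and 403 CPM and to 139, 306, 143 and 142 CPM. In the lowest control range 60.1% of cells (55.1 to 65.0) held at least 0.3% of Krt10, Krt1 and Krt2, against 19.0% (9.87 to 31.4) in the lowest GOF range. The lowest control range thus held the highest sums of the upper follicle and sebaceous lists. Endothelial markers summed to 1.05 and 0.221 CPM, with 4 of 5 at no UMI, and Merkel cell markers to 0.840 and 0.885 CPM. Comparisons between libraries are therefore also given for cells with at least 4%, a limit chosen after these values had been seen, and the part of other cell types in them was not tested.

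Birc5 (ENSMUSG00000017716, chromosome 11, 117849251 to 117855743 in mm10) was at 30.9 CPM (27.4 to 34.6) in control and 666 CPM (642.5 to 690.3) in GOF scale cells, a ratio of 21.6 (19.1 to 24.4). This goes with the labels. In single cells, 767 of 931 control cells and 69 of 257 GOF cells had no Birc5 UMI, the GOF median was 361 CPM, and the highest cells reached 509.8 and 3774 CPM. So the level varied widely within the GOF scale cells and some of them overlapped the control. In GOF cells without any UMI of 12 core mitotic genes Birc5 was at 613 CPM and in those with one at 698.5 CPM, against 6.94 and 37.9 CPM in the control.

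Birc5 was lower in GOF scale cells of higher keratin share, at 815, 775, 473 and 326 CPM from the lowest range to the highest. In the control the same ranges had 45.2, 31.25, 8.60 and 4.045 CPM. After thinning to 3000 UMIs, 56.0% of GOF scale cells (49.7 to 62.2) and 7.33% of control scale cells (5.735 to 9.20) held a Birc5 UMI. Unthinned, the shares were 73.15% and 17.6%. GOF melanocytes, a class set with no keratin limit, had 49.6% at 3000 UMIs (41.1 to 58.2) and 699 CPM. The share in GOF scale cells was within that interval, and unthinned 61.9% of GOF melanocytes held a Birc5 UMI. The part of RNA shared between droplets was not tested. Its partners in the chromosomal passenger complex did not follow Birc5. In control and GOF scale cells the kinase gene Aurkb had 16.4 and 5.98 CPM, the inner centromere protein gene Incenp 24.5 and 14.2 CPM, and the borealin gene Cdca8 43.0 and 16.6 CPM. YFP, on which cells were sorted, had 68 and 6 UMIs, and involucrin (Ivl), whose promoter drives the Cre, had 5 and 8 UMIs.

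Between the libraries, 68 of 10092 genes with at least 50 pooled UMIs were at least 2-fold higher in GOF scale cells (0.674%) and 357 at least 2-fold lower (3.54%). Among cells with at least 4% scale keratin, 39 of 6884 genes were at least 2-fold higher and 128 lower. Of the 357 lower genes 66 could be compared there and 47 of these were still at least 2-fold lower, and of the 68 higher genes 31 could be compared and 23 were still higher. The median log2 ratio of all compared genes was -0.01 (GOF over control).

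The genes named as higher in GOF scale cells, apart from Birc5, were mostly of low level. Wdr72, a WD repeat gene, had 1 control and 94 GOF UMIs, a ratio of 198 (34.7 to 7912). It had no UMI in control basal-keratin cells and 8.88 CPM in those of the GOF library. Myadm, a myeloid-associated differentiation marker gene, was at 4.51 and 40.7 CPM (9.02-fold, 6.44 to 12.9), with log2 ratios of 3.17 in scale, 4.01 in interscale-keratin and 3.19 in basal-keratin cells. Wdr72 and Myadm therefore stood apart between the libraries in other classes too.

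Other genes higher in GOF scale cells had smaller ratios. Prss53, a serine protease gene of the hair follicle, was at 6.19 and 22.1 CPM (3.57-fold, 2.565 to 5.02), against 0.368 and 0.831 CPM in interscale-keratin and 1.01 and 0.894 CPM in basal-keratin cells. Eps8, an actin regulator gene, was at 11.3 and 33.65 CPM, and H60c, a ligand gene of the NKG2D receptor, at 11.9 and 32.5 CPM. The other 6 were Ccdc122 (17.95 and 50.25 CPM), the translation factor gene Eif3j2 (12.5 and 33.2 CPM, which can share reads with its copy Eif3j1), the heme-binding protein gene Hebp2 (63.5 and 143 CPM), the interferon-inducible Ifi202b (26.45 and 58.0 CPM), Fcgbp (29.0 and 62.4 CPM) and Ociad2 (24.6 and 52.9 CPM). With at least 4% scale keratin the log2 ratios of Hebp2 and Fcgbp were 0.79 and 0.62, under 2-fold. In male-called cells Prss53, Eps8, Ccdc122, Eif3j2, Hebp2, Ifi202b and Ociad2 were under 2-fold, with log2 ratios from 0.60 for Hebp2 up to 0.98 for Ccdc122, with Eif3j2 at the 2-fold line.

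Several scale-side genes were also higher in GOF scale cells without passing 2-fold. Selenbp1 was at 1118 CPM (1097 to 1139) and 1869 CPM (1829 to 1909), a ratio of 1.67. Its median over single cells was 903 and 1897 CPM and its highest cell 6041 and 8325 CPM, so the cells of the 2 libraries overlapped. The order held in each range of keratin share, with 629.6, 1107, 1875 and 2023 CPM along the control ranges and 1158, 1618, 2641 and 2938 CPM along the GOF ranges, and in male-called cells, with 1118 and 1961 CPM. Hoxc13 had a ratio of 1.49 (1.39 to 1.595) and Foxn1 of 1.44 (1.23 to 1.68). The transcription factor list had 14 of 21 genes higher and 7 lower with a median log2 ratio of 0.20, and Barx2 passed 2-fold on the lower side. In basal-keratin cells Hoxc13 was at 68.5 and 101 CPM, so it was higher in the GOF library there too.

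Krt2, one of the keratins that the rule limits, was at 708 and 83.7 CPM in control and GOF scale cells. Krt17, a keratin gene of the follicle and of stressed epidermis, was at 1726 CPM (1699 to 1752) and 363 CPM (346 to 381), 4.75-fold apart. In male-called cells Krt17 was at 1702 and 160.3 CPM. In single cells its median was 628 and 93.1 CPM and its highest 31519 and 21478 CPM, so the cells overlapped. With at least 4% scale keratin Krt17 was at 694 and 239 CPM and Krt2 at 495 and 75.65 CPM. Basal-keratin cells held Krt17 at 3949 and 1981 CPM and melanocytes at 1082 and 367 CPM. Krt2 was lower in the GOF library in these classes too, at 277 and 74.4 CPM in basal-keratin cells and 566.5 and 65.0 CPM in melanocytes. Krt10, Krt1 and Krt2 together were held under 0.5% in basal-keratin cells and at 2% or more in interscale-keratin cells. The Krt2 levels of these 2 classes are therefore descriptions, and only the melanocyte class had no such limit. In interscale-keratin cells it was at 13304 and 5556 CPM. The part of free RNA in the Krt17 and Krt2 differences was not tested.

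Colec12, Baiap2l1 and Igfbp2 were lower in GOF cells of other classes as well. Colec12, a scavenger receptor gene, was at 182 and 30.3 CPM, Baiap2l1, which encodes an adaptor of membrane curvature and actin, at 108 and 19.0 CPM, and the growth factor binding protein gene Igfbp2 at 119 and 24.6 CPM. Their log2 ratios were -2.59, -2.51 and -2.28 in scale cells and -1.90, -2.30 and -1.51 in basal-keratin cells. In male-called scale cells they were -0.91, -2.67 and -0.62, so Colec12 and Igfbp2 were under 2-fold there. Within the GOF library Colec12 was at 96.2 CPM (66.2 to 135) in 21 male-called and 20.2 CPM (15.7 to 25.6) in 196 female-called scale cells, and Igfbp2 at 78.7 and 16.4 CPM. Baiap2l1 was at 17.5 and 18.75 CPM in these. So Colec12 and Igfbp2 differed by sex call inside 1 library beyond counting error, and for Baiap2l1 no such difference was detectable.

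The remaining named genes on the control side had few cells behind them or marked other states. Krt6b, a stress keratin gene, was at 73.3 and 10.2 CPM, with 58.0% of its control UMIs in 1 cell, and with the Krt10, Krt1 and Krt2 limit at 4% its log2 ratio turned from -2.85 to 1.38. The alarmin genes were at 21.9 and 2.88 CPM for S100a8 and 23.3 and 3.54 CPM for S100a9, with 45.9% and 41.4% of control UMIs in 1 cell. Lipid genes of the sebaceous gland were at 25.5 and 3.32 CPM for Elovl3 and 34.2 and 5.31 CPM for Cidea, with 53.3% and 62.5% of GOF UMIs in 1 cell. Ube2c, which encodes a ubiquitin-conjugating enzyme of late mitosis, was at 79.0 and 11.7 CPM, and Cdc20, whose protein activates the matching ligase, had 44.2 and 6.86 CPM. For these, 30.2% and 32.3% of GOF UMIs were in 1 cell. With at least 4% scale keratin Ube2c was at 18.8 and 14.9 CPM and Cdc20 had 14.6 and 4.53 CPM.

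**Figure D4:**
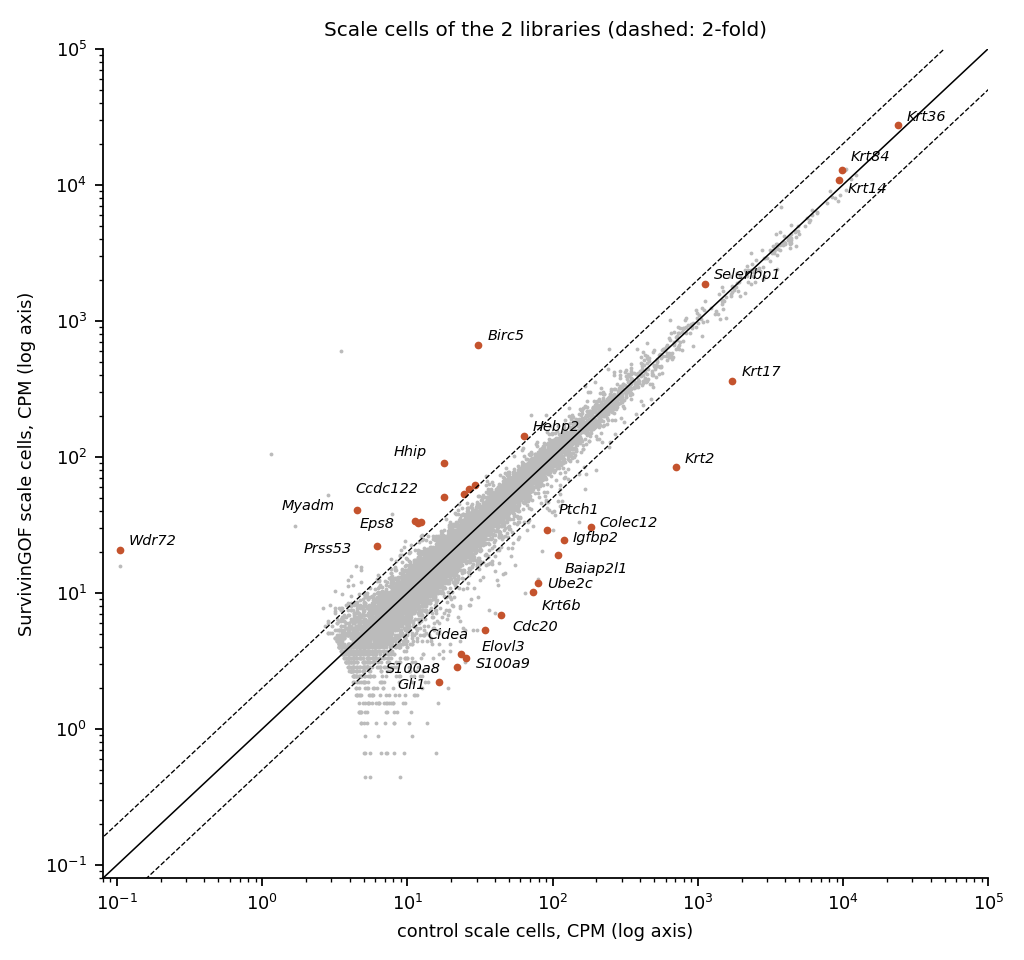
Each point is 1 gene with at least 50 pooled UMIs and a UMI in both libraries, with CPM in control scale cells on the x axis and in SurvivinGOF scale cells on the y axis (log axes, dashed lines 2-fold), and some of the genes named in the text are labelled. Birc5 lies far above the band, at 30.9 and 666 CPM, and Krt2 and Krt17 lie below it.

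Mitotic genes were lower over all GOF scale cells. Of 12 core mitotic genes all 12 were lower and 11 at least 2-fold, with a median log2 ratio of -1.89, among them the proliferation marker gene Mki67 (93.85 and 40.5 CPM) and the centromere protein gene Cenpf (84.4 and 20.4 CPM), while the topoisomerase gene Top2a (89.1 and 51.6 CPM) missed 2-fold. With at least 4% scale keratin, 0 of 5 compared passed 2-fold and the median was -0.34. In male-called cells all 12 were at least 2-fold lower, from few GOF UMIs. The list summed to 575 and 49.5 CPM there, and Cdc20 had no UMI in the 21 GOF cells. After thinning to 3000 UMIs, 48.3% of control and 19.8% of GOF scale cells held a core mitotic UMI (70.9% and 54.1% before thinning), against 46.7% and 30.9% of melanocytes. Neither share of scale cells stood above that of the melanocyte class, which had no keratin limit, beyond counting error. Interscale-keratin cells had thinned shares of 29.4% in the control (25.57 to 33.47) and 15.63% in the GOF library (12.56 to 19.12). The control scale cells stood above these beyond counting error, while in the GOF library the intervals of the 2 classes overlapped. Basal-keratin cells had 51.57% and 34.18%, above the scale cells in both libraries, beyond counting error in the GOF library only. Of 16 compared S phase genes 0 passed 2-fold and the median was 0.02, whereas in male-called cells 10 of 14 were at least 2-fold lower. Over all genes, such calls were also more frequent in male-called cells, with 21 GOF cells, than in all scale cells, as counted in the last section. The share over all genes compared in male-called cells is not given here, so the 2 lists are not set against it.

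Hedgehog targets were mostly lower in GOF scale cells, although both genotypes carry SmoM2. Of 9 compared, 5 were at least 2-fold lower, among them Gli1, a transcription factor gene that the pathway itself induces, at 16.6 and 2.21 CPM, the receptor gene Ptch1 (91.75 and 29.2 CPM), Mycn (16.1 and 6.20 CPM) and Gli2 (8.61 and 4.21 CPM). In male-called cells Ptch1 was at 92.7 and 29.1 CPM. Ptch1 was lower in GOF basal-keratin cells too, at 171 and 84.8 CPM. Smo itself was at 56.5 and 53.35 CPM. Among cells with at least 4% scale keratin 4 could be compared, Ptch1 was at least 2-fold lower and Hhip at least 2-fold higher, and the median log2 ratio was -0.46 against -1.03 in all scale cells. The 11 genes of the list summed to 513, 429.8, 286.5 and 146 CPM along the control ranges and 521, 502.5, 265 and 135 CPM along the GOF ranges, a sum that includes Hhip and Smo.

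Hhip, which encodes a decoy receptor for hedgehog ligands and is a target of the pathway, went the other way, at 17.95 CPM (15.4 to 20.85) in control and 90.3 CPM (81.8 to 99.5) in GOF scale cells. In interscale-keratin cells it was at 12.5 and 4.43 CPM and in basal-keratin cells at 22.0 and 25.2 CPM. No Hhip UMI was found in 804 of 931 control and 129 of 257 GOF scale cells, and the highest cells reached 459 and 645 CPM. Along the keratin ranges it had 17.4, 21.0, 19.35 and 6.74 CPM for the control and 56.1, 115, 118 and 45.5 CPM for the GOF library. Within the GOF library Hhip was at 104 CPM (93.7 to 116) in female-called and 5.83 CPM (0.706 to 21.05) in male-called scale cells, the latter from 2 UMIs. The excess of Hhip was thus not seen in male-called cells, and sex or mouse and genotype cannot be told apart for it.

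Interferon and MHC class I genes were higher in GOF scale cells in 9 of 9 compared, and 2 passed 2-fold, the ubiquitin-like modifier gene Isg15 and the immunoproteasome gene Psmb9. The median log2 ratio was 0.69, and 0.70 with at least 4% scale keratin. The class I light chain gene B2m was at 95.8 and 169 CPM and the heavy chain gene H2-D1 at 380 and 617 CPM. In male-called cells 1 of 8 compared was higher and 7 lower, with B2m at 93.7 and 61.2 CPM and H2-D1 at 376 and 370.1 CPM, while GOF female-called cells had 181 and 672 CPM. In interscale-keratin cells B2m was at 105 and 207 CPM.

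Desmosome genes were higher in GOF scale cells in 11 of 12 compared, none past 2-fold, with a median log2 ratio of 0.24. The desmoplakin gene Dsp was at 2328 and 3155 CPM, Perp, which encodes a desmosomal tetraspan protein, at 3674 and 4461 CPM, and Dsc1 at 63.4 and 101 CPM. GOF scale cells held higher keratin shares, and with at least 4% the median was 0.12 with 8 of 11 higher. Cdkn1a was at 197 and 352 CPM and with at least 4% at 341 and 522 CPM.

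In the cholesterol synthesis list 17 of 20 compared genes were lower in GOF scale cells, with a median log2 ratio of -0.48, and 2 passed 2-fold, among them Insig1 (17.85 and 7.08 CPM), which retains the sterol sensor in the endoplasmic reticulum. With at least 4% scale keratin 16 of 20 were lower and Insig1 again passed 2-fold. In basal-keratin cells Insig1 was at 12.1 and 6.96 CPM.

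Sebaceous, upper follicle and bulge markers were mostly lower in GOF scale cells, and inner root sheath markers were not. In the sebaceous list all 8 compared genes were lower and 7 passed 2-fold, with the fatty acid desaturase gene Scd1 at 169 and 75.3 CPM and the glutathione transferase gene Mgst1 at 199 and 80.35 CPM. The upper follicle list had 6 of 6 lower and 4 past 2-fold, and the immune list 3 of 3, with the class II invariant chain gene Cd74 at 24.98 and 3.10 CPM. In the bulge list 5 of 6 were lower and 3 past 2-fold, Lgr5, Sox9 and Lhx2. Of 3 compared inner root sheath markers 2 were higher, with a median log2 ratio of 0.15, and the list summed to 159 and 153 CPM. In cells with at least 4% scale keratin 4 of 5 sebaceous, 2 of 4 upper follicle and 2 of 4 bulge markers were at least 2-fold lower. In the stress and companion keratin list all 8 were lower and 5 passed 2-fold, while Krt16, a stress keratin gene, was at 243 and 221 CPM over all scale cells and at 151 and 348.5 CPM with at least 4% scale keratin, the other way round. Melanocyte markers had 4 of 6 higher, among them Tyrp1 at 8.92 and 18.8 CPM with 48.2% of its GOF UMIs in 1 cell.

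Keratin-associated, envelope and protease genes differed in both directions between the libraries. Of 4 compared keratin-associated genes Krtap3-1 (15.3 and 5.98 CPM) and Krtap11-1 (9.87 and 3.98 CPM) were at least 2-fold lower, Krtap3-3 was at 26.6 and 13.5 CPM, just under 2-fold, and Krtap7-1 had a ratio of 1.17 (1.025 to 1.33). In male-called cells Krtap7-1 was at 71.4 and 26.2 CPM, the latter from 9 UMIs. Among 16 compared envelope genes 10 were higher and 6 lower in GOF scale cells, with a median log2 ratio of 0.12 and -0.15 with at least 4% scale keratin. Sprr1a, Sprr1b and Tgm5 were at least 2-fold lower, with Sprr1b at 104 and 37.4 CPM and, with at least 4% scale keratin, at 237 and 58.8 CPM. Among 18 epidermal protease genes 5 were at least 2-fold lower, the aspartic protease gene Asprv1 and 4 kallikreins, Klk8 (66.45 and 28.8 CPM), Klk10, Klk11 (38.2 and 16.4 CPM) and Klk13 (13.75 and 1.11 CPM). Among cells with at least 4% scale keratin 2 of 15 compared were, Klk11 and Klk13, and the log2 ratio of Klk8 was -0.98. In male-called cells that of Klk8 was 0.50, the opposite direction. Klk13 was at 26.5 and 5.96 CPM in interscale-keratin cells.

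**Figure D5:**
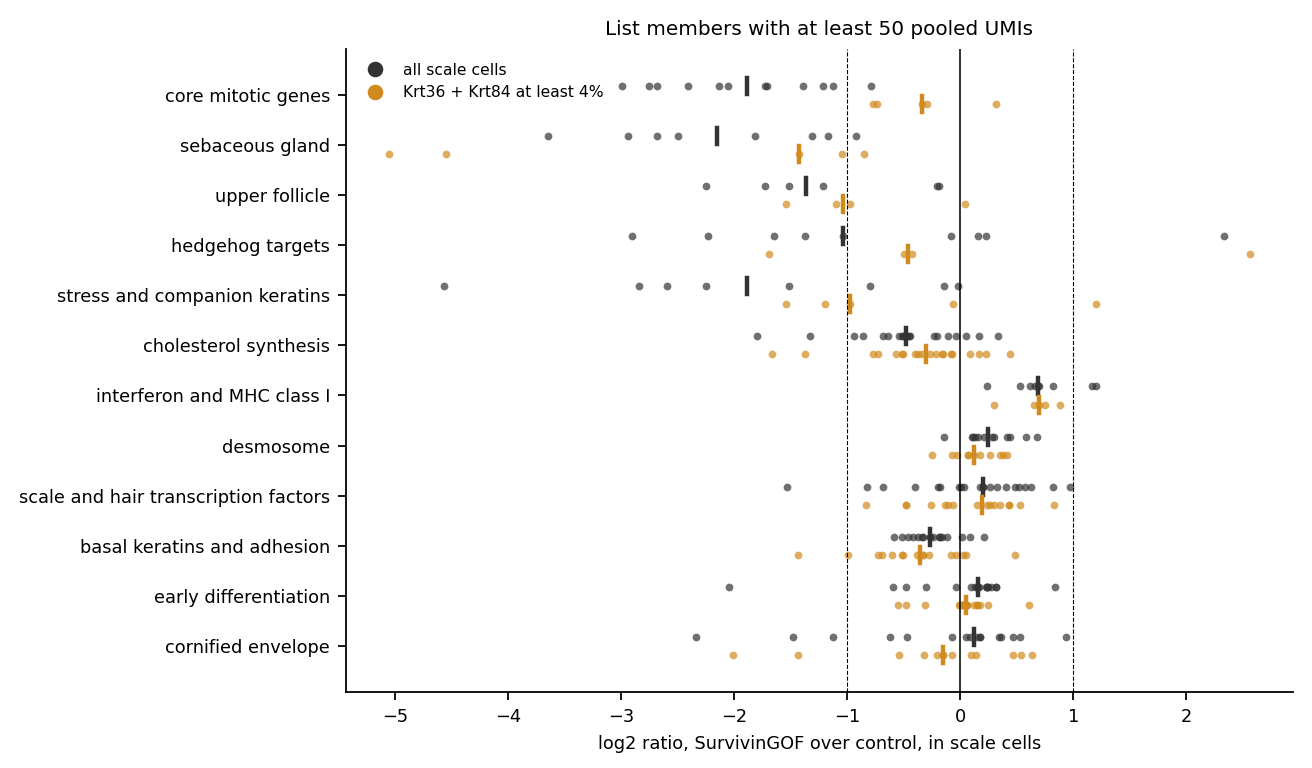
Each point is the log2 ratio of SurvivinGOF over control CPM of 1 list member with at least 50 pooled UMIs, in all scale cells (black) and in scale cells with at least 4% Krt36+Krt84 (orange), and ticks are list medians. The core mitotic median is -1.89 in all scale cells and -0.34 in the second set, while the interferon and MHC class I median is 0.69 and 0.70.

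Several groups had few or no members past 2-fold. Early differentiation genes had 13 of 18 higher in GOF scale cells and a median log2 ratio of 0.16, with Krtdap, a keratinocyte differentiation gene, at 10525 and 13100.3 CPM. Basal keratin and adhesion genes had 14 of 17 lower and a median of -0.26, none past 2-fold, whereas with at least 4% scale keratin Postn passed 2-fold. In male-called cells, where such calls were more frequent over all genes, 5 of 17 did, all lower, with a median of -0.83. Metallothionein genes had 3 of 3 higher, with Mt4, the metallothionein gene of stratified epithelia, at 10335 and 12818 CPM. Notch, glycolysis, immediate early, junction, and BMP and Id genes had no member past 2-fold, with medians of -0.29, -0.12, -0.12, 0.11 and 0.13. Their medians in male-called cells were 0.14, -0.10, 0.35, -0.29 and 0.04, so Notch, immediate early and junction genes turned direction. In those cells 2 immediate early genes were at least 2-fold higher, 1 Notch gene was lower, and 1 glycolysis gene passed each way. Dusp1 and Hk2 were at least 2-fold lower among cells with at least 4% scale keratin.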

How the data were processed

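The deposited files are 10x Genomics matrices of raw UMI counts per gene and barcode, 1 per library, and the values are counts that the authors did not normalize. Per the submitters' processing notes the tools include Cell Ranger 6.1.1, R 4.3.0 and Seurat 4.2.0, with build mm10. Per the labels, 10000 cells were loaded per channel, and 8046 cells are stated for the control, beside 24844 barcodes in its file and 10993 that passed the filter here.

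Members and gene lists were chosen with earlier results of these data known. Counts were summed over the scale cells of a library and given as CPM with exact Poisson intervals, ratios with exact conditional intervals and shares with Clopper-Pearson intervals, all at 95%. With 1 library per genotype no test was made, and a gene with at least 50 pooled UMIs was counted when it differed at least 2-fold. Genes were named by the 12 largest ratios each way between libraries (nearest interval bound, at least 20 CPM, same direction in male-called cells) and the 15 largest each way between classes (at least 50 CPM), leaving out mitochondrial, ribosomal, hemoglobin, X-inactivation and Y-linked genes, markers of melanocytes, immune cells, fibroblasts and endothelium, and unnamed gene models. List members were named for high levels or large ratios. Melanocyte-like cells had at least 0.2% of UMIs from melanocyte markers. Basal-keratin cells had at least 1% from Krt5 and Krt14 and under 0.5% from Krt10, Krt1 and Krt2, and interscale-keratin cells at least 2% from Krt10, Krt1 and Krt2.

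Depth was 146216083 UMIs for the control and 126329382 UMIs for the GOF library. Shares of cells with a UMI were compared after thinning to 3000 UMIs with seed 1. Doublets were not removed except in an alternative that drops the top 6% of scrublet scores. The ratio and interval code was tested on simulated data. Python 3.11.15, numpy 2.4.6, scipy 1.17.1, pandas 2.3.3, scanpy 1.11.5 and matplotlib 3.10.9 were used. Promoter sequences are from RefSeq, GRCm38.p6, with 3 of 3 genes matched. Some genes that met the naming rule are not reported here.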

Additional observations from a re-analysis of the deposited data

Results flagged for a closer look

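Outside the filter on genes and mitochondrial UMIs, 1177 control barcodes and 389 GOF barcodes met the keratin limits of scale cells, and 722 and 192 of these had under 1500 genes. They were not analysed with the scale cells.

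For 3 genes the direction between the libraries in scale cells was opposite to that in interscale-keratin cells, with 1 library per genotype, so the difference of the differences was not tested. Hhip had a log2 ratio (GOF over control) of 2.33 in scale and -1.50 in interscale-keratin cells. Tyrp1, a pigment gene of melanocytes, had 1.08 and -1.89, and 48.2% of its UMIs in GOF scale cells were in 1 cell. Krt7, a simple-type keratin gene, had -1.15 and 1.39, from 42 and 9 UMIs in scale cells.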

How the results depend on the processing

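No paired analysis was possible because each genotype is 1 library and the labels give no replicate numbers shared between genotypes. The cause of the moves below was not tested. Genes at least 2-fold higher in GOF scale cells, 68 as reported, numbered 147 with a scale keratin minimum of 0.5%, 157 and 25 with 20 and 200 pooled UMIs, 371 at 1.5-fold, 208 in male-called cells and 39 with a minimum of 4%. Genes at least 2-fold lower, 357 as reported, numbered 590, 639, 97, 866, 1432 and 128 in the same order. As reported these are 0.674% and 3.54% of 10092 genes, and with 4% they are 0.567% and 1.86% of 6884. The 1.5-fold counts are of the same 10092 genes, and in male-called cells at most 10092 could be compared. Other settings change the number compared, which is not given here, so their counts are not shares. This holds too for the counts between classes, 9511 genes as reported. Genes higher in scale than interscale-keratin cells, 108, numbered 198 with 0.5%, 43 after thinning, 179 and 44 with 20 and 200 UMIs and 327 at 1.5-fold, and genes lower, 106, numbered 40 after thinning, 48 with 200 UMIs, 227 at 1.5-fold and 172 with 4%. The Birc5 log2 ratio, 4.43, was 3.99 with 0.5%, 4.95 with 2%, 4.62 without top doublet scores, 5.13 in male-called cells and 5.86 with 4%. The control share of 8.47% became 16.8% with 0.5%, 4.91% with 2%, 7.61% with a Krt10, Krt1 and Krt2 limit of 1% and 2.82% with 4%, and the GOF share of 3.71% became 4.825%, 2.875% and 1.81% with 0.5%, 2% and 4%. Krt6b reversed, to a log2 ratio of 1.38 with a Krt10, Krt1 and Krt2 limit of 4%, from -2.85. For the 24 genes named between libraries, 260 of 285 recomputed ratios were at least 2-fold in the same direction, 24 were smaller and 1 reversed, and for the 30 named between classes 326 of 328 were and 2 were smaller. These genes had been picked for the largest ratios in the same cells, so their staying past 2-fold is no independent check. The ratios between libraries include male-called cells, where the naming rule asked for the same direction, so those could not reverse. No value could be had for Wdr72 after thinning, Cdc20 and S100a8 in male-called cells, and Dpysl3 after thinning and with 4%. Cdc20 and S100a8 had no UMI in male-called GOF scale cells, which the naming rule counted as lower. The 4% minimum was chosen after seeing the data.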
